A study of Mus musculus with 6 samples.

Results

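The 9 genes described here handle retinol and its products, and were measured in mouse liver tumors with and without Prmt3, an arginine methyltransferase, in hepatocytes. They are Rbp4, Lrat, Rdh9, Rdh16, Rdh7, Rdh11, Hsd17b6, Aldh1a1 and Aldh1a7, taken by symbol from the 34745 genes of the deposited table, and all 9 were among the 13892 genes with enough counts to be tested. Rdh9 was selected on its higher counts in Prmt3 LKO tumors, so its genotype difference is given as a description, with no test. The other 8 members were named by function, with earlier results of these data known.

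RNA-seq was performed on 6 liver tumors from 26-week-old mice, 3 from Prmt3 f/f mice (replicates 7, 66 and 71, labelled WT) and 3 from Prmt3 LKO mice (replicates 92, 93 and 94). In Prmt3 LKO mice the floxed Prmt3 is cut by Alb-Cre, which acts in hepatocytes, and other cells of the tumor keep the gene. Both groups received the carcinogen diethylnitrosamine (DEN, 25 mg/kg) when 2 weeks old and then, from 6 weeks on, the liver toxin CCl4 (10%, 0.5 ml/kg). The question asked of these 9 genes was whether their mRNA level differed with genotype, and how it varied between tumors.

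Retinol reaches the liver as vitamin A from the diet and leaves it bound to RBP4, which circulates together with transthyretin. Hepatic stellate cells store it as retinyl esters, which LRAT makes. Retinol dehydrogenases oxidize retinol reversibly to retinal, and retinal dehydrogenases of the ALDH1A group oxidize retinal irreversibly to retinoic acid, the ligand of the RAR nuclear receptors.

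The members Rdh9, Rdh16, Rdh7 and Hsd17b6 lie in 1 cluster of related short-chain dehydrogenases on chromosome 10. Together with Rdh1, Rdh18-ps, Rdh19, BC089597 and Sdr9c7, they span 241.0 kb (GRCm38, chr10:127759721-128000678), with Rdh9 at chr10:127776386-127792697, Rdh16 at chr10:127801152-127846565, Rdh7 at chr10:127884028-127888817 and Hsd17b6 at chr10:127990941-128000678. The coding sequence of Rdh9 was identical to that of Rdh16 at 96.3% of bases, to that of Rdh7 at 85.4% and to that of Hsd17b6 at 72.1%. Aldh1a1 (chr19:20601961-20643462) and Aldh1a7 (chr19:20692953-20727562) lie close to each other, with 91.6% identity of their coding sequences. Rdh11 lies at chr12:79174337-79192293, Lrat at chr3:82892579-82903973 and Rbp4 at chr19:38116620-38125321.

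The promoter windows of both pairs, which reach past the start site, also hold shared sequence and are printed here. Each is the RefSeq window from 250 bases before to 50 after the start site (GRCm38.p6), written 5′ to 3′ on the strand of the gene. Capitals mark runs of at least 12 bases that the 2 genes of a pair share exactly. The Rdh9 window is chr10:127776155-127776454 on the plus strand and that of Rdh16 is chr10:127800903-127801202 on the plus strand. The Aldh1a1 window is chr19:20601718-20602017 on the plus strand and that of Aldh1a7 is chr19:20727507-20727806 on the minus strand.
Rdh9: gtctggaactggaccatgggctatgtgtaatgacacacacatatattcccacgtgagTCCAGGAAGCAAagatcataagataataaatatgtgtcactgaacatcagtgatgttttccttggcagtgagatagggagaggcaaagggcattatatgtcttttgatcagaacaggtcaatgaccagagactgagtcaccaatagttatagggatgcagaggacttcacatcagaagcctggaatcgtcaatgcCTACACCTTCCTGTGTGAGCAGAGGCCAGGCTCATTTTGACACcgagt
Rdh16: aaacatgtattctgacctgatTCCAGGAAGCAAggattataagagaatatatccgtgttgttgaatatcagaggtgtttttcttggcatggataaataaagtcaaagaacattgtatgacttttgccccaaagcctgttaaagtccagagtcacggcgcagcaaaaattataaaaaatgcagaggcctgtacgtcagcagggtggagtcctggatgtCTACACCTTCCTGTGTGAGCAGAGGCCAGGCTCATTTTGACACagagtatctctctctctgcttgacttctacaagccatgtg
Aldh1a1: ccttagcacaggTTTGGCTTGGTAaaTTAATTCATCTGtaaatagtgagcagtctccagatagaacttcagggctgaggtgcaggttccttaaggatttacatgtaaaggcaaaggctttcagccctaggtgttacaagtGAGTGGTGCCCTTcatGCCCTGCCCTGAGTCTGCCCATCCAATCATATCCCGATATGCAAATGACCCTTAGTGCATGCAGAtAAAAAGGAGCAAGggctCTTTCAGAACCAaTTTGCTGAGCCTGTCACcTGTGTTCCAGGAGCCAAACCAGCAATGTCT
Aldh1a7: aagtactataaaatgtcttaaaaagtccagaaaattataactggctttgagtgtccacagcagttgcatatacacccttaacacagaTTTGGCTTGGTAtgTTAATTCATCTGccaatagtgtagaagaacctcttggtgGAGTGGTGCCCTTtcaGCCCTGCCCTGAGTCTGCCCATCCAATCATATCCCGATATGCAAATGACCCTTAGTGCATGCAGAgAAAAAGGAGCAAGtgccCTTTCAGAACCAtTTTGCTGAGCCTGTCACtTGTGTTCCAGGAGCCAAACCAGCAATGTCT

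The Rdh9 and Rdh16 windows shared 55 of 300 bases in such runs, with a longest run of 43 bases. That run lies after the start site in the Rdh9 window and mostly before it in the Rdh16 window. The Aldh1a1 and Aldh1a7 windows shared 174 of 300 bases, with a longest run of 65 bases that holds the octamer ATGCAAAT, 56 bases before the start in both genes. The octamer was present in 1.74% of the 32851 mouse promoters of the same length. The half-site AGGTCA of nuclear receptors, among them the retinoic acid receptors, occurred once in the Rdh9 window, 79 bases before the start, and once in the Rdh16 window, 238 bases before the start, and in 16.3% of all promoters. It was not found in the windows of the other 7 members, and no member held a direct repeat of it spaced by 1, 2 or 5 bases. TTCNNNGAA was found only in Rdh16 among the members (8.30% of all promoters), TATAAA only in Rdh16 and Aldh1a7 (13.6%), and CCAAT in Rdh9, Lrat, Rbp4, Aldh1a1, Aldh1a7 and Hsd17b6 (37.4%). All motifs were searched on both strands, and a match describes the letters only.

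Between 18440244 and 27976598 counts were obtained per tumor. Prmt3 itself was between 6.60 and 10.2 CPM (counts scaled to library size, with TMM normalization) in Prmt3 f/f tumors and between 2.03 and 3.82 CPM in Prmt3 LKO tumors, so its groups did not overlap. Alb, the hepatocyte product albumin, was at 108200 CPM or more in every tumor, and all 8 general hepatocyte markers were detected. A call required a change of 2-fold or more in either direction together with an adjusted p below 0.05, and no gene of the 13892 tested met both by the quasi-likelihood test of edgeR (0%), although 912 genes (6.56%) had an unadjusted p under 0.05. DESeq2 called 44 genes lower and 10 higher in Prmt3 LKO tumors, and the exact test of edgeR 35 lower and 5 higher. Whether the tumors of a group came from separate mice is not stated in the labels. If some shared a mouse, the spread between tumors, and the p-values that rest on it, would understate the variation between mice. In bulk tumors, fewer cells of a type and less RNA per cell cannot be told apart.

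Levels were first compared between genes per length, as the mean FPKM of the 6 tumors. Rbp4 was the most abundant member at 1531 ± 143 FPKM (SD, n = 6), followed by Rdh7 at 333 ± 108, Aldh1a1 at 186 ± 49.1 and Hsd17b6 at 81.6 ± 89.5. Aldh1a7 was at 62.3 ± 23.8 FPKM, Rdh11 at 27.7 ± 10.2, Rdh9 at 10.6 ± 7.38, Lrat at 2.72 ± 0.334 and Rdh16 at 2.53 ± 1.55. Rbp4 was above Rdh7 with no overlap between tumors. Rdh7 exceeded Aldh1a1, Aldh1a1 exceeded Hsd17b6, Aldh1a7 exceeded Rdh11 and Rdh11 exceeded Rdh9 in 6 of 6 tumors, although their ranges overlapped, and Rdh9 exceeded Lrat in 5 of 6. Hsd17b6 exceeded Aldh1a7, and Lrat exceeded Rdh16, in 4 of 6 tumors, so these neighbors did not differ beyond their spread.

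The length behind the FPKM affects this order. For Rdh9, Rdh7, Lrat and Aldh1a7 it equaled the summed length of all transcripts annotated in GENCODE M21, which is 4423 bases for the 3 transcripts of Rdh9, the longest of which has 2698 bases. With CPM per kb of the longest transcript instead, Rdh9 was at 17.5 ± 12.5, Rdh16 at 6.54 ± 4.05 and Lrat at 2.73 ± 0.391 (SD, n = 6), and Rdh16 moved above Lrat. The other 7 members kept their places.

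**Figure D1:**
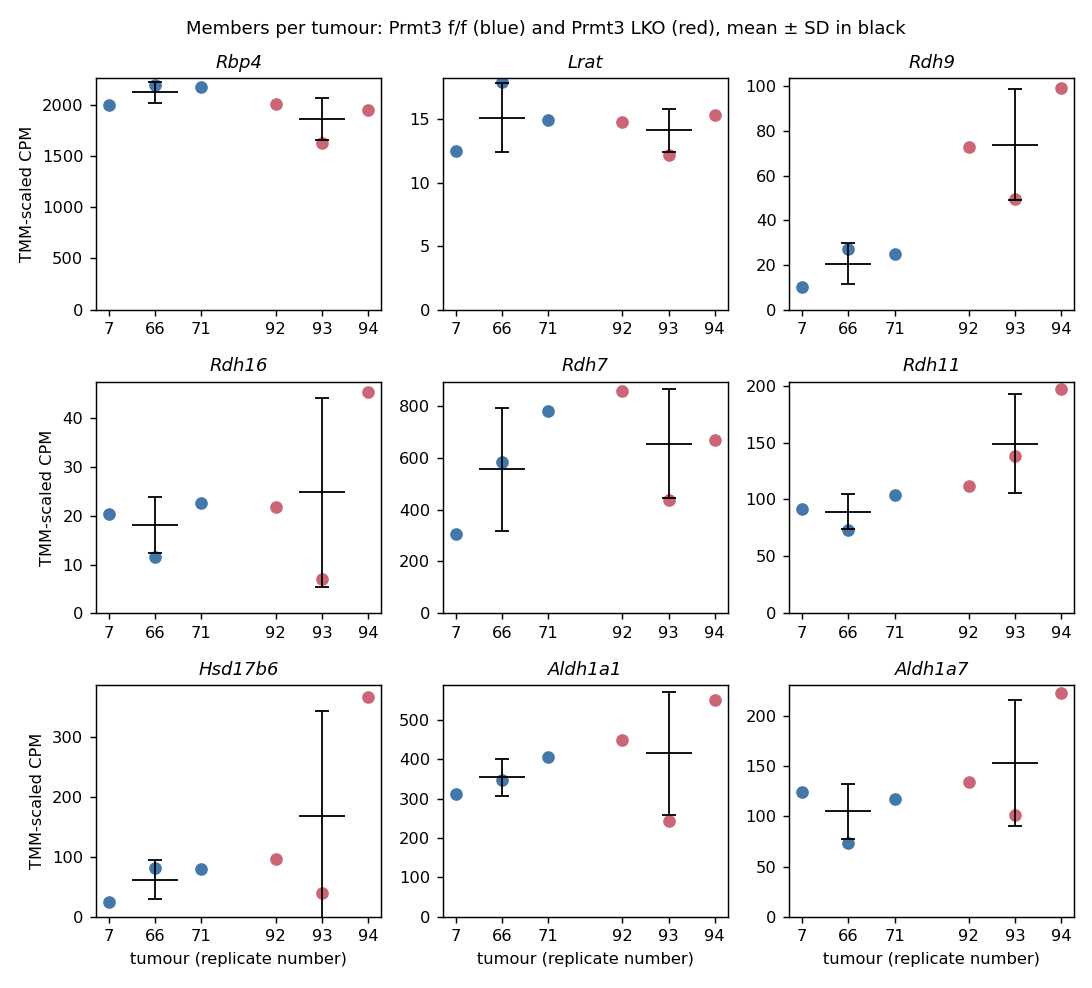
Level of each member in each tumor, as TMM-scaled CPM on linear axes that start at 0, against the replicate number of the tumor. Points are tumors, blue for Prmt3 f/f and red for Prmt3 LKO, and black marks give the mean ± SD of 3 tumors. The red points lie above all blue points for Rdh9 and Rdh11, and Hsd17b6 reached 367 CPM in 1 Prmt3 LKO tumor.

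Among the members that carry and store retinol, neither differed with genotype in CPM beyond the spread between tumors. Rbp4, the plasma carrier of retinol, was at 1995, 2190 and 2169 CPM in the Prmt3 f/f tumors (replicates 7, 66 and 71, the order used throughout), and at 2006, 1627 and 1947 CPM in those of Prmt3 LKO mice (replicates 92, 93 and 94, likewise). The groups met at their edges, with replicate 92 just above replicate 7. In FPKM they did not overlap, with replicate 7 at 1584 and replicate 94, the highest of the Prmt3 LKO tumors, at 1481. The log2 fold change of Rbp4, Prmt3 LKO over Prmt3 f/f, was -0.19 ± 0.20 (SE, n = 3 per group, adjusted p = 0.945, edgeR quasi-likelihood test).

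Lrat, which forms retinyl esters, was at 12.5, 17.9 and 14.9 CPM in Prmt3 f/f tumors and at 14.8, 12.2 and 15.3 CPM in Prmt3 LKO tumors. Its groups overlapped almost fully. The log2 fold change was -0.10 ± 0.18 (SE, adjusted p = 0.972, edgeR quasi-likelihood test), and 0.038 without Prmt3 f/f replicate 66. The 11 markers of quiescent stellate cells, the cells known for Lrat, summed to between 229 and 318 CPM in Prmt3 f/f tumors and between 231 and 322 CPM in Prmt3 LKO tumors, and none of them was at 0. The sum hides markers that went either way, 5 with a positive and 6 with a negative log2 fold change. Reln averaged 100 CPM in Prmt3 f/f and 130 CPM in Prmt3 LKO tumors, and Rgs5 67.2 and 34.6 CPM.

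Of the 4 members in the chromosome 10 cluster, Rdh9 showed the difference for which it was chosen. Rdh9, a dehydrogenase of retinols and hydroxysteroids, was at 9.97, 27.2 and 24.9 CPM in Prmt3 f/f tumors and at 72.9, 49.7 and 99.1 CPM in Prmt3 LKO tumors, from 216 to 1971 counts. All Prmt3 LKO tumors were above all Prmt3 f/f tumors, with the lowest value in Prmt3 f/f replicate 7. The fitted log2 fold change of Rdh9 was 1.84 ± 0.40 (SE), or 3.57-fold, and lay between 1.5 and 2.08 when each tumor was left out in turn.

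The Rdh9 counts are tied to those of a second gene, Gm28046. Gm28046 is the symbol in the table for the gene that GENCODE M21 names Rdh16f1, a read-through gene that starts within Rdh1 and ends with the last 3 exons of Rdh9 (chr10:127759787-127792694, plus strand). It shares 2302 exonic bases with Rdh9, which are 64.1% of the exonic bases of Rdh9 and 83.2% of its own. Of the windows of 75 bases in the longest Rdh9 transcript, 89.1% occurred in a transcript of another gene, compared with 12.0% for Hsd17b6, 9.45% for Rdh16, 6.30% for Rdh7, 2.51% for Aldh1a7, 2.2% for Aldh1a1 and 0% for Rdh11, Lrat and Rbp4.

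Gm28046 was at 9.14, 70.0 and 60.1 CPM in Prmt3 f/f tumors and at 28.2, 32.7 and 115 CPM in Prmt3 LKO tumors. Its groups overlapped, and 2 Prmt3 LKO tumors were below 2 Prmt3 f/f tumors. Rdh9 received 52.2%, 28.0% and 29.3% of the counts of the pair in Prmt3 f/f tumors and 72.1%, 60.3% and 46.3% in Prmt3 LKO tumors. The share also overlapped between groups, through Prmt3 f/f replicate 7.

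With both genes counted together, a comparison added after the values were seen, the pair was at 19.1, 97.2 and 85.0 CPM in Prmt3 f/f tumors and at 101, 82.4 and 214 CPM in Prmt3 LKO tumors. The groups then overlapped, since Prmt3 LKO replicate 93 was below Prmt3 f/f replicates 66 and 71. The log2 fold change of the pair was 0.98 ± 0.59 (SE), compared with 1.84 for Rdh9 alone and 0.33 ± 0.77 for Gm28046 alone. How far the split of shared reads sets the Rdh9 values was not tested, because counts per exon were not used here.

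**Figure D2:**
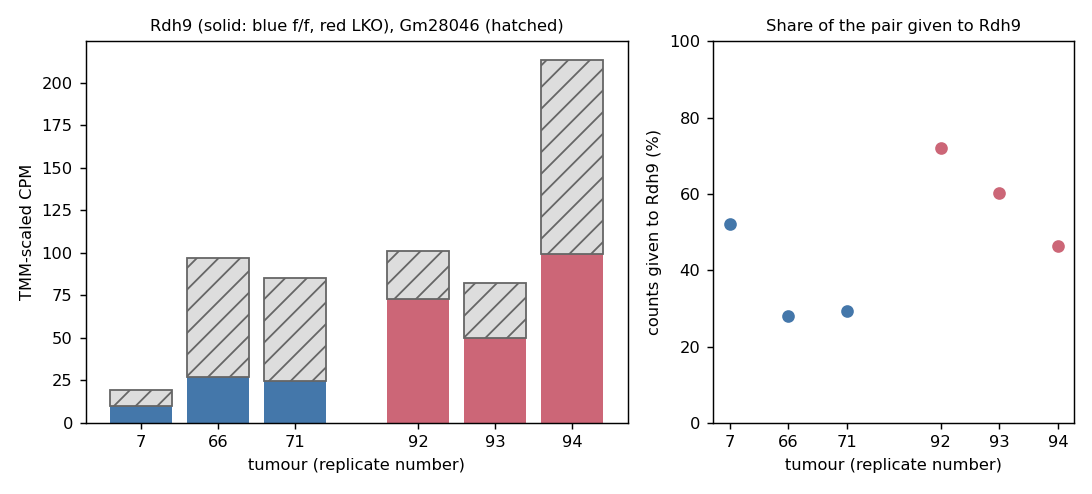
Left, stacked bars of the TMM-scaled CPM of Rdh9 (solid, blue for Prmt3 f/f and red for Prmt3 LKO) and of Gm28046 (hatched), which shares its last 3 exons, by tumor. Right, the percentage of the counts of both genes given to Rdh9 in each tumor. The solid bars separate the genotypes, while the full bars overlap, with 82.4 CPM in Prmt3 LKO replicate 93 and 97.2 CPM in Prmt3 f/f replicate 66.

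Rdh16, the closest relative of Rdh9 in the cluster, was at 20.4, 11.6 and 22.5 CPM in Prmt3 f/f tumors and at 21.9, 7.08 and 45.5 CPM in Prmt3 LKO tumors. The lowest and the highest of the 6 tumors were both Prmt3 LKO tumors, 6.42-fold apart. Its log2 fold change was 0.45 ± 0.58 (SE, adjusted p = 0.957, edgeR quasi-likelihood test), and -0.33 without Prmt3 LKO replicate 94. The annotated Rdh16 gene encloses the pseudogene Rdh18-ps, with which it shares 381 exonic bases and which had at most 8 counts in any tumor.

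Rdh7, the most abundant dehydrogenase of the cluster, was at 306, 582 and 780 CPM in Prmt3 f/f tumors and at 858, 437 and 668 CPM in Prmt3 LKO tumors. Tumors within each group differed more (2.55-fold and 1.96-fold) than the group means did. For Rdh7 the log2 fold change was 0.23 ± 0.38 (SE, adjusted p = 0.968, edgeR quasi-likelihood test), and was -0.065 without Prmt3 f/f replicate 7 and -0.0095 without Prmt3 LKO replicate 92.

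Hsd17b6, which oxidizes hydroxysteroids and can also act on retinol, was at 24.6, 81.2 and 79.7 CPM in Prmt3 f/f tumors and at 96.3, 39.9 and 367 CPM in Prmt3 LKO tumors. A single tumor, Prmt3 LKO replicate 94, was far above the rest. The log2 fold change of 1.44 ± 0.79 (SE, adjusted p = 0.817, edgeR quasi-likelihood test) rested on that tumor, and was 0.14 without it.

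The remaining genes of the cluster gave a wide range of levels. BC089597, now named Rdh16f2, was at 156 FPKM in Prmt3 f/f tumors and 141 FPKM in Prmt3 LKO tumors on average, second to Rdh7 in the cluster, with a log2 fold change of -0.11 ± 0.28 (SE). Sdr9c7 stayed at or below 1.31 FPKM, Rdh1 had at most 8 counts in a tumor and Rdh19 had none, which allows up to 0.163 CPM at the lowest depth, taking 3 counts as the limit and covering counting error only.

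Rdh11, a microsomal enzyme that reduces retinal to retinol and lies outside the cluster, was at 91.3, 73.4 and 104 CPM in Prmt3 f/f tumors and at 112, 139 and 197 CPM in Prmt3 LKO tumors. All Prmt3 LKO tumors were above all Prmt3 f/f tumors, by a narrow margin between replicates 71 and 92. For Rdh11 the log2 fold change was 0.74 ± 0.24 (SE), with an unadjusted p of 0.0165 and an adjusted p of 0.648 by the edgeR quasi-likelihood test, so it was not called. It was between 0.49 and 0.91 with each tumor left out.

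Aldh1a1, a cytosolic retinal dehydrogenase, was at 312, 346 and 405 CPM in Prmt3 f/f tumors and at 448, 244 and 551 CPM in Prmt3 LKO tumors. The Prmt3 LKO group held both the lowest and the highest tumor. The log2 fold change was 0.23 ± 0.30 (SE, adjusted p = 0.957, edgeR quasi-likelihood test), and -0.032 without Prmt3 LKO replicate 94.

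Aldh1a7, its neighbor and near copy, was at 125, 73.9 and 117 CPM in Prmt3 f/f tumors and at 134, 102 and 223 CPM in Prmt3 LKO tumors. The groups overlapped through Prmt3 LKO replicate 93. For Aldh1a7 it was 0.54 ± 0.32 (SE, adjusted p = 0.853, edgeR quasi-likelihood test), and 0.16 without Prmt3 LKO replicate 94.

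**Figure D3:**
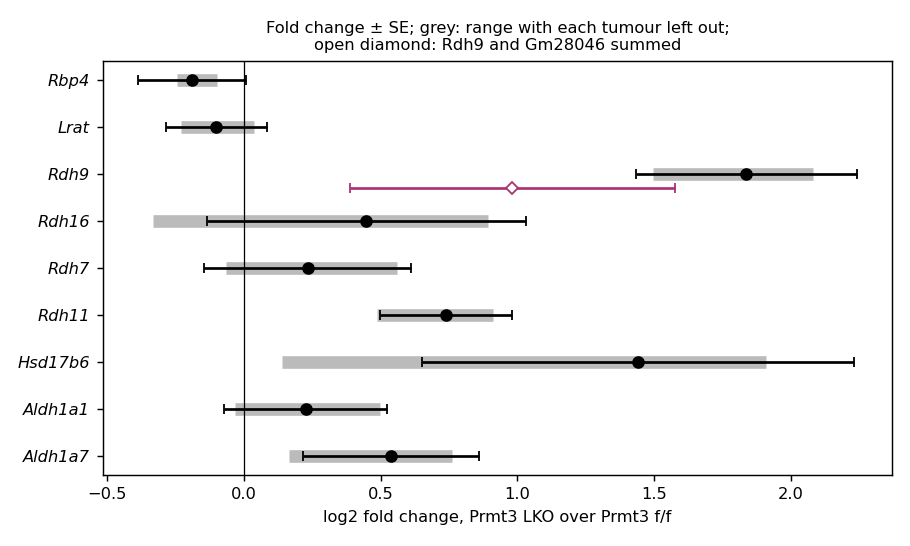
Log2 fold change of each member, Prmt3 LKO over Prmt3 f/f, from the edgeR fit (points, bars are ± SE), with the range over fits that leave out 1 tumor each in grey. The open diamond is Rdh9 with Gm28046 added, at 0.98. The grey range crosses 0 for Lrat, Rdh16, Rdh7 and Aldh1a1, and for Hsd17b6 it runs from 0.14 to 1.91.

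Of the 8 members not chosen by their genotype contrast, none was called by the quasi-likelihood test of edgeR (background 0% of 13892 genes), by its exact test, by DESeq2 or by limma-voom, and 1, Rdh11, had an unadjusted p under 0.05 (background 6.56%). Their log2 fold changes were positive for 6 and negative for 2, with a median of 0.34, beside a median of 0.00 over all genes tested, of which 50.1% were positive. Without Prmt3 LKO replicate 94 the median of these 8 was 0.05, with 4 positive and 4 negative. The Prmt3 LKO tumors were all above the Prmt3 f/f tumors for 1 of these 8, Rdh11 (background 5.56%), and all below them for 0 (background 6.6%).

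The tumors differed within each genotype in a way that many members shared. For 6 of the 9 members, Rbp4, Lrat, Rdh9, Rdh7, Hsd17b6 and Aldh1a1, the lowest Prmt3 f/f value was in replicate 7 and the lowest Prmt3 LKO value in replicate 93, compared with 16.7% of the genes tested. For 6 members, Rdh9, Rdh11, Rdh16, Aldh1a1, Aldh1a7 and Hsd17b6, the highest value of all was in Prmt3 LKO replicate 94. The same held for 15.4% of the genes tested. Rdh9 was chosen on its higher counts in Prmt3 LKO tumors, so only the other members named are set beside that share. Both patterns were noticed in these values and carry no test.

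Many markers of mature hepatocytes moved with the first of these patterns, and so did some of other cells. Lowest values in Prmt3 f/f replicate 7 and Prmt3 LKO replicate 93 were seen for 6 of 9 pericentral, 6 of 8 periportal and 5 of 8 general hepatocyte markers. Hsd17b13 and Ttr, counted among these, are also in the retinoid lists below. The same was seen for 3 of 6 endothelial, 2 of 11 quiescent stellate, 1 of 8 leukocyte and 0 of 8 myofibroblast markers. Cyp2e1, a pericentral cytochrome, was at 166 CPM in Prmt3 f/f replicate 7, 244 CPM in Prmt3 LKO replicate 93 and between 1057 and 1330 CPM in the other 4. Cps1, the first enzyme of the urea cycle, was at 958 and 1156 CPM there and between 2164 and 3006 CPM elsewhere. Cyp1a2, another pericentral cytochrome, went the other way in Prmt3 f/f tumors, at 309 CPM in replicate 7 and 133 CPM in replicate 66. Rhbg, Rnf43, Hal and Aldh1b1 did not follow the pattern either. Summed levels of the 9 pericentral markers were between 590 and 1945 CPM in Prmt3 f/f tumors and between 494 and 1753 CPM in Prmt3 LKO tumors, with no marker at 0, so they varied within each genotype. Their part in the levels of the members was not tested.

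**Figure D4:**
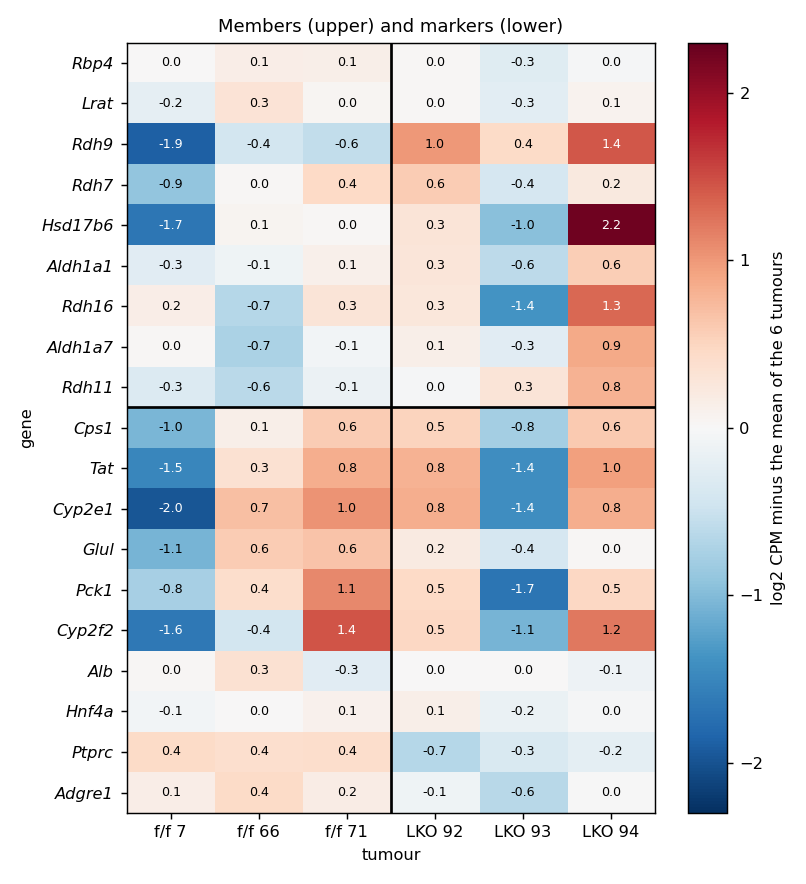
Log2 CPM of the members (above the line) and of 10 markers (below it) in each tumor, minus the mean of the 6 tumors, as color and number. Columns are the 3 Prmt3 f/f and 3 Prmt3 LKO tumors. The markers are a selection, and zonal markers with another pattern, such as Cyp1a2, Rhbg, Rnf43, Hal and Aldh1b1, are not drawn. Prmt3 f/f replicate 7 and Prmt3 LKO replicate 93 are low for the hepatocyte enzymes Cps1, Tat, Cyp2e1, Pck1 and Cyp2f2 and for Rdh7 and Hsd17b6, while Alb and Hnf4a vary little.

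Some other markers separated the genotypes in these 6 tumors, which is a description. None of the leukocyte or kidney markers tested was called (background 0%), with adjusted p of 0.592 or more by the edgeR quasi-likelihood test. Of 8 leukocyte markers, 5 (Ptprc, Cd3e, Adgre1, S100a8 and Nkg7) had all Prmt3 LKO values below all Prmt3 f/f values (background 6.6%). The list summed to between 313 and 842 CPM in Prmt3 f/f tumors and between 225 and 318 CPM in Prmt3 LKO tumors, and these sums overlapped, with Prmt3 f/f replicate 71 at 313 CPM and Prmt3 LKO replicate 94 at 318 CPM. Of 16 kidney markers, 3 (Kap, Slc34a1 and Umod) had enough counts to be tested, and each had all Prmt3 LKO values above all Prmt3 f/f values. Kap passed the count filter in both groups (background 5.56%). Slc34a1 and Umod, with at most 3 and 8 counts in a Prmt3 f/f tumor, passed it only through the Prmt3 LKO tumors. Their separation was close to fixed by the filter, so it is not set against the background. The 16 markers summed to between 3.41 and 4.85 CPM in Prmt3 f/f tumors and between 10.5 and 13.8 CPM in Prmt3 LKO tumors. The kidney markers Nphs1 and Aqp2 had at most 3 counts in any tumor. Other markers with too few counts to be tested were also higher in Prmt3 LKO tumors. Slc22a8 had 0 counts in each Prmt3 f/f tumor against 3, 6 and 5, and Slc22a12 had 3, 1 and 2 against 5, 8 and 7. Slc22a6, Slc12a1, Slc12a3, Slc5a2 and Calb1 were higher in CPM in every Prmt3 LKO tumor, from at most 16 counts. Not every marker of the list was higher: Pvalb had 6, 1 and 4 counts in Prmt3 f/f tumors and 0 in each Prmt3 LKO tumor, and Cubn had 0, 4 and 0 counts against 1, 1 and 2. The part of either list in the Rdh9 or Rdh11 difference was not tested.

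Levels of the members varied together across tumors. Of the 36 pairs, 31 had a positive Pearson r of log2 CPM over the same 6 libraries, with a median of 0.51. Values were highest for Rdh16 with Aldh1a1 (r = 0.90), Aldh1a1 with Hsd17b6 (0.86), Rdh16 with Aldh1a7 (0.83) and Rdh11 with Aldh1a7 (0.82), and lowest for Rdh11 with Rbp4 (-0.56). Rdh9 and its near copy Rdh16 had an r of 0.25. After the genotype means were subtracted, 32 of 36 pairs were positive, with a median of 0.67. These 6 points share library, depth and the difference in hepatocyte genes between tumors, so they describe these libraries. Pairs of other genes were not compared, so nothing particular to the members is read from these values.

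Spread within genotype also set members apart. The within-genotype SD of log2 CPM was 1.34 for Hsd17b6, 1.02 for Rdh16, 0.66 for Rdh9 and 0.60 for Rdh7, against a median of 0.28 over all genes tested. Aldh1a7, Aldh1a1 and Rdh11 were also above that median, at 0.50, 0.45 and 0.34. Lrat (0.22) and Rbp4 (0.13) were below it.

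The genes most like Rdh9 in log2 CPM over the 6 tumors were sought among the 7987 genes with a mean of at least 10 CPM. They were Mark3 (r = 0.99), Lyst (0.98) and Atg4b (0.98). The best of so many genes over 6 points can reach such an r without any link, so these values carry no test. For Rdh9 the r also holds the genotype difference for which it was chosen. Mark3 was between 31.1 and 37.3 CPM in Prmt3 f/f tumors and between 41.0 and 46.2 CPM in Prmt3 LKO tumors, a far smaller range than that of Rdh9. Genes most like Rdh16 were Cdo1 (r = 0.99), the dioxygenase of cysteine, Abcg2 (0.98), an efflux transporter, and Tprkb (0.98). Cdo1 was lowest in Prmt3 LKO replicate 93 at 336 CPM and highest in Prmt3 LKO replicate 94 at 673 CPM, the same extremes as Rdh16.

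The rest of the retinoid pathway, with 10 hydroxysteroid and androgen enzymes, was followed in 85 further gene symbols sorted by role. Of these, 81 were found in the table and 61 were tested, 9 of them hydroxysteroid and androgen enzymes. Among the symbols not found, Rdh16f2 is the newer name of BC089597, which was counted. Rdh16f1 is in the table as Gm28046, which is described above and not counted here. None of the 61 was called by the quasi-likelihood test of edgeR (background 0%) or by limma-voom. DESeq2 and the exact test of edgeR, which called 44 and 35 genes lower and 10 and 5 higher over the whole table, called none of the 61 either. By the quasi-likelihood test, 3 had an unadjusted p under 0.05 (background 6.56%). Their log2 fold changes were positive for 36 and negative for 25, with a median of 0.05. Prmt3 LKO tumors were all above Prmt3 f/f tumors for 3 of the 61 (background 5.56%) and all below for 2 (background 6.6%). At an unadjusted p under 0.05 by the same test, together with a change of 2-fold or more, 1 gene was lower (background 1.77%) and none higher (background 0.317%).

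Of 4 tested genes of retinoid binding and transport, Ttr, the partner of RBP4 in plasma, was at 2449 ± 315 FPKM in Prmt3 f/f tumors and 3107 ± 470 FPKM in Prmt3 LKO tumors (SD, n = 3). Fabp5, which can carry retinoic acid, was at 166, 190 and 212 CPM in Prmt3 f/f tumors and 214, 276 and 283 CPM in Prmt3 LKO tumors. These groups did not overlap in CPM, by a narrow margin between replicates 71 and 92. In FPKM they overlapped, with replicate 71 at 51.0 and replicate 92 at 48.0. The log2 fold change of Fabp5 was 0.45 ± 0.18 (SE, adjusted p = 0.742, edgeR quasi-likelihood test).

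Among 10 tested genes of retinyl ester formation and cleavage, 8 had positive fold changes. Dgat1, an acyltransferase that also esterifies retinol, was at 14.5, 13.8 and 15.3 CPM in Prmt3 f/f tumors and 18.1, 22 and 22.4 CPM in Prmt3 LKO tumors. These groups did not overlap, but its log2 fold change of 0.52 ± 0.15 (SE) had an adjusted p of 0.606 by the edgeR quasi-likelihood test. The abundant esterases and lipase Ces1d, Ces1f and Lipc had log2 fold changes of 0.22, 0.61 and 0.17, with adjusted p of 0.801 or more by the same test.

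Among 16 tested genes that interconvert retinol and retinal, 8 were positive and 8 negative. Adh1, the abundant liver alcohol dehydrogenase, was at 732 FPKM in Prmt3 f/f tumors and 735 FPKM in Prmt3 LKO tumors on average. Hsd17b13, a lipid droplet enzyme with retinol dehydrogenase activity, had a log2 fold change of -0.40 ± 0.21 (SE, adjusted p = 0.80, edgeR quasi-likelihood test). Dhrs3, a retinal reductase that is itself induced by retinoic acid, was at 79.0, 77.8 and 78.9 CPM in Prmt3 f/f tumors and 67.4, 54.3 and 67.0 CPM in Prmt3 LKO tumors, which did not overlap. It lies outside the rule for named genes and was picked for its values, with a log2 fold change of -0.32 ± 0.14 (SE, adjusted p = 0.762, edgeR quasi-likelihood test).

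Among the genes that oxidize retinal to acid, 5 were tested. Aldh1a2, a retinal dehydrogenase that hepatocytes make little of, was at 10.1, 3.73 and 1.12 CPM in Prmt3 f/f tumors and 1.43, 1.90 and 1.46 CPM in Prmt3 LKO tumors. The difference lay in Prmt3 f/f replicates 7 and 66, and replicate 71 was below all Prmt3 LKO tumors. Its log2 fold change was -1.63 ± 0.70 (SE, adjusted p = 0.756, edgeR quasi-likelihood test), and it ranged from -2.11 without Prmt3 f/f replicate 71 to -0.60 without Prmt3 f/f replicate 7. Aldh8a1, Aox3 and Aox1 had log2 fold changes of 0.05, 0.33 and 0.38, with adjusted p of 0.917 or more by the same test.

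None of the 2 tested genes that break down retinoic acid or the 8 tested genes that respond to it was called. Cyp26a1, which degrades retinoic acid and is induced by it, was at 11.6, 19.8 and 15.5 CPM in Prmt3 f/f tumors and 25.3, 12.7 and 22.2 CPM in Prmt3 LKO tumors. Its groups overlapped, with a log2 fold change of 0.36 ± 0.29 (SE, adjusted p = 0.915, edgeR quasi-likelihood test). Cyp26b1 had a log2 fold change of 0.20, and Cyp2c39 was below 1 CPM in every tumor and was not tested. The abundant responsive genes Rarres2, Tgm2 and Rarres1 had log2 fold changes of -0.05, 0.28 and 0.42.

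Of the 6 receptor genes, Rxra was the most abundant, at 41.2 FPKM in Prmt3 f/f tumors and 43.2 FPKM in Prmt3 LKO tumors on average. Rarg was at 25.7, 32.6 and 23.1 CPM in Prmt3 f/f tumors and 22.9, 21.5 and 19.6 CPM in Prmt3 LKO tumors, which did not overlap by a narrow margin. Its log2 fold change was -0.35 ± 0.17 (SE, adjusted p = 0.775, edgeR quasi-likelihood test). Rxrb had a log2 fold change of 0.14, and Rxrg, picked for its values, was higher in every Prmt3 LKO tumor at 0.59 ± 0.34 (SE, adjusted p = 0.834, edgeR quasi-likelihood test), from at most 3.77 CPM. The margin of Rxrg was narrow, with Prmt3 f/f replicate 7 at 2.54 CPM and Prmt3 LKO replicate 93 at 2.57 CPM. In FPKM its groups overlapped.

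Genes of carotenoid uptake and cleavage and the hydroxysteroid dehydrogenases gave small differences. Scarb1, Bco1 and Cd36 had log2 fold changes of 0.06, -0.21 and -0.04. Akr1c6, Hsd17b2 and Hsd17b4 had log2 fold changes of 0.41, -0.16 and 0.05, and the lowest adjusted p of these 6 was 0.907 by the edgeR quasi-likelihood test.

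**Figure D5:**
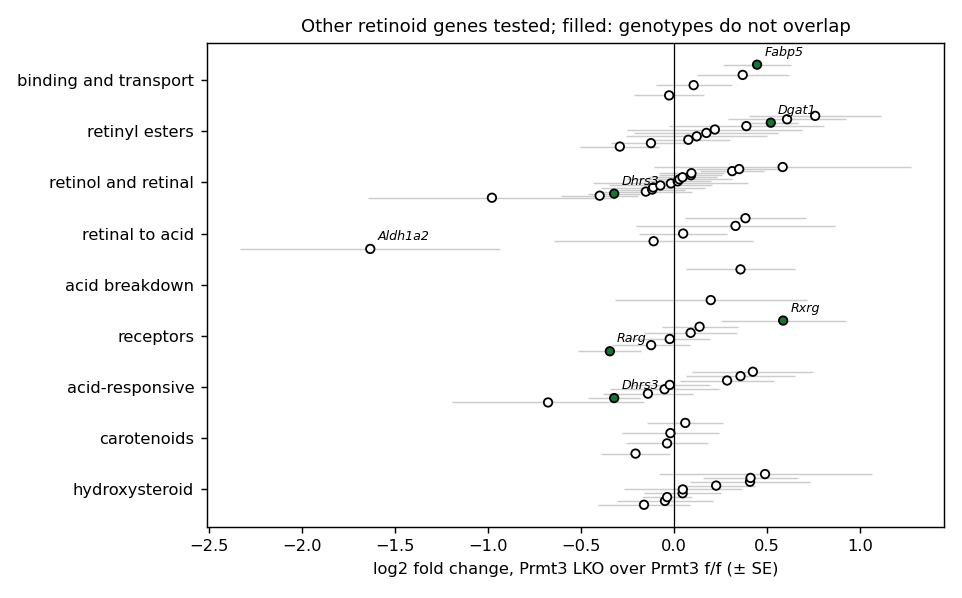
Log2 fold change, Prmt3 LKO over Prmt3 f/f, of each other retinoid or hydroxysteroid gene tested, by role (horizontal bars are ± SE of the edgeR fit, vertical offset only separates genes). Genes in 2 roles are shown in both. Filled points are genes whose genotypes do not overlap in log2 CPM, namely Fabp5, Dgat1 and Rxrg above and Dhrs3 and Rarg below, and Aldh1a2 has the lowest value at -1.63. Fabp5 and Rxrg overlap in FPKM.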

How the data were processed

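Reads were paired-end and were aligned by the authors to GRCm38, and the submitters' processing notes name bcl2fastq 2.19, HISAT2 2.0.4 and StringTie 1.3.0. The deposited counts are whole numbers per gene and tumor, not normalized. The FPKM deposited by the authors scale the count by a gene length and the total of the tumor. How shared reads were split between genes, and whether strand was used, is not given in the sources used here. The 1013830 blank lines of the table were dropped.

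Counts were filtered with filterByExpr (minimum count 10, minimum total 15), scaled by TMM and tested in edgeR 4.0.16 (quasi-likelihood, R 4.3.3) on the 3 tumors of each group, with Benjamini-Hochberg adjustment over 13892 genes. CPM use the TMM-scaled library size, and log2 CPM a prior count of 2. The fits were tested on simulated data. Alternatives were DESeq2 1.42.0, library size without TMM, other filters, the exact test of edgeR, limma-voom and log2(FPKM + 1) (limma 3.58.1), and each tumor left out. The sum of Rdh9 and Gm28046 and the longest-transcript length were added after seeing the data.

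The members and the gene lists were chosen with earlier results of these data known. Named genes are the members, the 3 most abundant genes of each list by mean FPKM, genes with an unadjusted p under 0.05, and the 3 genes (10 CPM or more, predicted genes passed over) with the highest r to Rdh9 and Rdh16. Of the genes this rule names, 1 is not reported here. Promoters are from RefSeq (GRCm38.p6, 9 of 9 members matched, entry nearest to the deposited start) and overlaps from GENCODE M21.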

Additional observations from a re-analysis of the deposited data

How the results depend on the processing

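Over 13 alternatives, 7 of other methods and 6 that leave out a tumor, Rdh9, Rdh11, Rbp4, Aldh1a7 and Hsd17b6 kept their direction. Directions reversed for Rdh7 (-0.065 without Prmt3 f/f replicate 7, -0.0095 without Prmt3 LKO replicate 92, at most 0.56 with another tumor left out), Rdh16 (-0.33) and Aldh1a1 (-0.032) without Prmt3 LKO replicate 94 (at most 0.89 and 0.50 with another left out), and Lrat (0.038 without Prmt3 f/f replicate 66, at least -0.23 with another left out). No alternative called a member other than Rdh9 or any other retinoid gene. DESeq2 and the exact test of edgeR each counted 1 member as called, Rdh9, from which nothing is read since it was chosen on this contrast. They called 44 and 35 genes lower and 10 and 5 higher over all genes, against 0 in both directions by the quasi-likelihood test. Without a filter beyond 1 count, 2 genes were called lower over all genes. The cause was not tested. With a tumor left out, 0 genes were called in either direction, and so 0 members and 0 other retinoid genes. Without TMM, with either other filter or on log2(FPKM + 1), 3 members did not overlap, Rdh9 among them. The added one was Rbp4, lower in Prmt3 LKO tumors (background 6.58% to 7.44%). Members whose genotypes did not overlap numbered between 2 and 5 with a tumor left out, always with Rdh9, which was chosen on this contrast. Of the 8 other members, 4 did not overlap without Prmt3 LKO replicate 93 (Rdh11, Aldh1a1, Aldh1a7 and Hsd17b6, all higher, background 10.9%). With Rdh9 and Gm28046 counted together, 1 member, Rdh11, did not overlap, and the pair changed by 0.98. With the longest transcript as length, 7 of 9 members kept their place in the order of levels. No paired analysis was possible because the groups share no replicate numbers.

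The 3 tumors per group limit the precision. Strand use and the split of reads between genes with shared exons were not known, a limit on every value of Rdh9 alone.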
